A study of Mus musculus with 14 samples.

Results

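The 10 genes described here encode the machinery that makes peptides and displays them on MHC class I molecules: H2-K1, H2-D1 and B2m, which form the class I molecule, Tap1, Tap2 and Tapbp, which deliver and load peptides, Psmb8, Psmb9 and Psmb10, the catalytic subunits of the immunoproteasome, and Nlrc5, the class I transactivator. They were picked as a fixed list of gene names, with earlier results of these data known. All 10 were found among the 13406 genes of the doxycycline comparison and among the 14563 genes of the Id2 comparison, so every member had passed the low-expression filter that shows in both tables.

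RNA sequencing was done on primary mouse acute myeloid leukaemia (AML) cells in 14 libraries. All cells came from spleens of terminally sick mice, labelled C57/BL6, in which lethal irradiation and transduced foetal liver cells had led to leukaemia. All carried a Tet-Off retrovirus for MLL-AF9, a fusion oncogene, with a dsRED reporter, and another vector for NRASG12D and the Tet-Off activator. In 4 doxycycline libraries the cells had been kept in vitro in doxycycline for 4 days, which switches MLL-AF9 off, and 4 untreated libraries carry the same pair labels without the drug. Most titles of the doxycycline libraries, and no untreated title, end in R, a mark that the titles do not explain. In 3 Id2-GFP libraries the cells had been transduced with a retrovirus for Id2, an inhibitor of E-protein transcription factors, and in 3 control-GFP libraries with the GFP vector, both sorted for GFP 2 days later. No doxycycline is labelled for the transduced cells. No library had doxycycline without the MLL-AF9 switch, so the drug and the loss of the fusion cannot be told apart. Nothing in the labels says that replicates came from separate animals, so p-values measure the spread between these samples, which may be technical in part.

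MHC class I molecules show fragments of the cell's own proteins to CD8 T cells. The proteasome cuts proteins into peptides, and its immunoproteasome form, in which Psmb8, Psmb9 and Psmb10 take the places of Psmb5, Psmb6 and Psmb7, favours cuts that yield peptides fit for class I. The Tap1-Tap2 transporter moves these peptides into the endoplasmic reticulum, where tapasin (Tapbp) and calreticulin (Calr) hold the class I heavy chain and its light chain, beta-2-microglobulin (B2m), until a peptide is bound. Interferon-gamma raises most of these genes, and Nlrc5 acts on many of their promoters together with RFX, NF-Y and CREB/ATF proteins.

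Values are in CPM, the reads of a gene divided by the scaled total of its library, and changes are differences of log2 CPM ± SE from limma, with p-values adjusted over all genes of the table and a call at an adjusted p under 0.05. Depth on the tabled genes was 17922644 to 25959766 reads in the doxycycline comparison and 14051150 to 14948487 in the Id2 comparison, and a member had 509 to 41506 reads in a library. The labels held for the targeted genes: Mllt3, part of the fusion, was at 5.3 to 6.81 CPM in doxycycline and 234 to 811 CPM in untreated libraries, and Id2 was at 952 to 1631 CPM in Id2-GFP and 25.8 to 51.5 CPM in control-GFP libraries. Of 13 myeloid marker names, in which Emr1 and Adgre1 stand for the same gene, 11 were in each table. The summed level of these 11 was 27381 to 39643 CPM in doxycycline against 4849 to 7667 CPM in untreated libraries, and 2523 to 3506 CPM in Id2-GFP against 2447 to 3741 CPM in control-GFP libraries. Of the lymphoid lists, T cells had 1 of 10 markers in the doxycycline table, B cells 1 of 7 and NK cells 2 of 7, with the highest sum 22.8 CPM, and none of 10 erythroid markers was in it. A marker can be missing through the low-expression filter or because the table uses another name for it. Dendritic cell markers, 3 of 8 in that table, summed to 75.7 to 91.6 CPM in doxycycline and 58.2 to 102 CPM in untreated libraries. These sums hide opposite changes of single markers. The myeloid sum rests largely on Lyz2, lysozyme of macrophages and granulocytes, at 21377 to 33077 CPM in doxycycline against 2178 to 4839 CPM in untreated libraries, and the other 10 markers summed to 6004 to 6880 CPM in doxycycline against 2386 to 2828 CPM in untreated libraries. The granule protease Elane and the myeloid transcription factor Cebpa fell by 1.97 ± 0.19 and 0.40 ± 0.06 on the log2 scale (limma, adjusted p = 1.5e-05 and 0.000169), and myeloperoxidase, Mpo, was lower in doxycycline in 4 of 4 pairs, with a change of -1.20 ± 0.63 (adjusted p = 0.119). Among the dendritic cell markers Flt3, a receptor also found on early progenitors, was at 0.74 to 3.73 CPM in doxycycline and 10.5 to 46.1 CPM in untreated libraries, while Bst2 was at 73.9 to 85.9 CPM in doxycycline and 47.0 to 55.0 CPM in untreated libraries. The part of these shifts in the results was not tested. In such bulk samples, fewer cells of a type and less RNA per cell cannot be told apart.

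Control-GFP replicate 3 stood apart from the other libraries of its table, also in the members. It was the highest of the 6 libraries for 9 of the 10 members, all but Nlrc5, and its members lay 0.49 above their group mean on average. Over all genes its root mean square deviation from its group mean was 0.66, against 0.32 to 0.48 in the other 5 libraries. Its erythroid markers, 3 of 10 in the table, summed to 36.2 CPM, against 0.87 to 5.45 CPM in Id2-GFP libraries, and its dendritic cell markers, 5 of 8 in the table, to 387 CPM, against 72.9 to 290.3 CPM in Id2-GFP libraries. The lowest control-GFP sums were 0.86 and 60.3 CPM. Its T and NK cell markers, 2 of 10 and 2 of 7 in the table, summed to 3.2 and 4.54 CPM. These were 1.46 to 2.22 and 0.91 to 2.77 CPM in Id2-GFP libraries, and the lowest control-GFP sums were 1.45 and 1.18 CPM. Its myeloid sum, 2447 CPM, was the lowest of the 6 libraries. Changes of the members and those list medians that are printed for the Id2 comparison are therefore given with and without it, and the part of these markers in them was not tested.

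Of the 10 members, 7 lie on chromosome 17, in GENCODE M21 on GRCm38, the assembly that the build mm10 denotes. From low to high coordinates these are Tapbp (chromosome 17, 33915899 to 33929292, plus strand), H2-K1 (33996017 to 34000347, minus strand), Psmb9 (34181987 to 34187764, minus strand), Tap1 (34187553 to 34197225, plus strand), Psmb8 (34197721 to 34201454, plus strand), Tap2 (34203527 to 34216321, plus strand) and H2-D1 (35262730 to 35267499, plus strand). B2m is on chromosome 2 (122147686 to 122153083, plus strand), and Psmb10 (105935735 to 105938444, minus strand) and Nlrc5 (94434356 to 94527272, plus strand) are on chromosome 8. Psmb9 and Tap1 are head to head, and their exons share 212 bases on opposite strands. Strand is not stated for the counting, so reads from such overlaps cannot be told apart. The same holds for Psmb8, which shares 498 exonic bases with antisense Gm20496, for Tap2, which shares 165 with Gm20496 and 533 with Gm15821, for Tapbp, which shares 904 with antisense Gm19412, and for Nlrc5, which shares 78 with 9330175E14Rik. Transcripts of H2-K1 and H2-D1 were 88.2% identical over 1513 aligned bases, and each was 91.4% or 91.6% identical to H2-Q4, so reads can be split among class I heavy chains and their separate values are uncertain.

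RefSeq promoter windows on GRCm38.p6, from 250 bases before to 50 after the gene's start, were found for 8 of the 10 members. Nlrc5 and Tap2 had no entry. The windows shown are those of both heavy chains and the light chain, which carry a shared module, and of Tap1 and Psmb8, which do not. Capitals mark matches, on either strand, to 5 motifs: the interferon-stimulated response element (ISRE, GAAANNGAAA), the gamma-activated sequence (GAS, TTCNNNGAA), the Y box of NF-Y (ATTGG), the core of the CREB/ATF site (CRE core, TGACG) and the kappaB site. The windows are H2-D1 (chr17:35262844-35263143, plus strand), the first of 2 H2-K1 entries (chr17:34000298-34000597, minus strand), B2m (chr2:122147437-122147736, plus strand), Tap1 (chr17:34187306-34187605, plus strand) and Psmb8 (chr17:34197945-34198244, plus strand).
H2-D1: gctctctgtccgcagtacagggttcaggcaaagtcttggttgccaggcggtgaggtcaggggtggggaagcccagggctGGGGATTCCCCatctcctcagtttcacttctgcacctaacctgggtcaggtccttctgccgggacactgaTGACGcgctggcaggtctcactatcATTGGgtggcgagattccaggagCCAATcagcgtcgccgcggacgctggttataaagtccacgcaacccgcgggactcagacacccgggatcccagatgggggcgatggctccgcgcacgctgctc
H2-K1: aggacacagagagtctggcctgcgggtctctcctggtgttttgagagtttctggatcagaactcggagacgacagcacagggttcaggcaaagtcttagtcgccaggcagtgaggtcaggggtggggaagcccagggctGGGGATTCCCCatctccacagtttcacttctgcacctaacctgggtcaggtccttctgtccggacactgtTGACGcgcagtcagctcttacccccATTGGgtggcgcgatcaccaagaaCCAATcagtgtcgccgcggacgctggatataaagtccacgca
B2m: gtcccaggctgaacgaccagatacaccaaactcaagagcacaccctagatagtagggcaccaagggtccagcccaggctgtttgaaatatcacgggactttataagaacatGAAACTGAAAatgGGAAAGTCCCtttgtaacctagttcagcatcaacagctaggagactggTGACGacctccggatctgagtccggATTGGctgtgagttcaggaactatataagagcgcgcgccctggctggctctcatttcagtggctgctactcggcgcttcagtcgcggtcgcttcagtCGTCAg
Tap1: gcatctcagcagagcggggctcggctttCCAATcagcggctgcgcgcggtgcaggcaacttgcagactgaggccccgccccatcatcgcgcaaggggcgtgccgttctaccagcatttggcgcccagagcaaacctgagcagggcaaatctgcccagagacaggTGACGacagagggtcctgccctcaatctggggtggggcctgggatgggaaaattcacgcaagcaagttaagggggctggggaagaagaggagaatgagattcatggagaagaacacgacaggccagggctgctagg
Psmb8: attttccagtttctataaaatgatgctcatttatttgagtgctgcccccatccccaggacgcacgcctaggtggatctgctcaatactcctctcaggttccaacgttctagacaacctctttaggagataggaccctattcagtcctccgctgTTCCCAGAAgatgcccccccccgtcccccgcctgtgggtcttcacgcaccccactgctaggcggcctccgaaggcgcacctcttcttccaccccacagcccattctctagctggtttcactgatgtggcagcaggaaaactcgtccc

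In H2-D1, H2-K1 and B2m a kappaB match lies upstream of a CRE core, which is followed, after 20 bases of any kind, by a Y box. That spacing was chosen after these promoters were seen. It was in 26 of 27025 mouse promoters (0.096%), among them those 3 and H2-M3, a non-classical heavy chain, and not in the windows of the other members with an entry. Whether this spacing has a part in the changes in doxycycline was not tested. Of its carriers, H2-D1 and B2m rose, and H2-K1 and H2-M3 did not pass the test. The changes of H2-K1 and H2-M3 were 0.15 and 0.29 (limma, adjusted p = 0.211 and 0.0965). Of the members whose windows lack it, Tapbp rose and Tap1 and Psmb8 fell. The call for H2-M3 depends on the fit. Its pair differences were 0.29, 0.47, 0.26 and 0.12. With the pair label as a replicate block H2-M3 passed (limma, adjusted p = 0.00553) and H2-K1 did not (0.0846). Taken singly, the motifs are common or fairly common: an ISRE was in 3.49% of promoters, a GAS in 8.47%, a Y box in 37.9%, a CRE core in 21.0% and a kappaB site in 8.18%. B2m was the member whose window matched the ISRE pattern, and its capitals also include a CRE core after the start. That pattern is exact and variants of it were not searched for. A window without a match, such as those of H2-D1 and H2-K1, may therefore still hold an ISRE. H2-D1 and H2-K1 each held a further Y box on the other strand, and their kappaB matches overlap in a single run of capitals. Their windows were 90.4% identical over 228 aligned bases. By their RefSeq starts, Tap1 and Psmb9 begin 225 bases apart on opposite strands, so that 275 bases of the Tap1 window are also the Psmb9 window, with a Y box and a CRE core. The Tapbp window, not shown, held 2 Y boxes, the Psmb8 window a GAS, and the Psmb10 window no match. A match is a run of letters and not a measured binding site.

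Per length, B2m was the most abundant member and Nlrc5 the least in each of the 4 groups. The length of a gene was the union of all its annotated exons, such as 860 bases for B2m, 3381 for Psmb8 and 8493 for Nlrc5. This union can be longer than the transcripts present, unequally between genes. The order of the genes depends on that choice, and no other length was tried. On the scale of CPM per kilobase of exon, B2m averaged 1854 ± 138 in doxycycline and 1131 ± 132 in untreated libraries (SD, n = 4 each), and Nlrc5 averaged 6.72 ± 0.92 and 6.54 ± 0.69. H2-D1 was at 721 ± 58.1 in doxycycline and 455 ± 20.5 in untreated libraries, and H2-K1 was below it at 391 ± 56.3 and 350.4 ± 19.9. These 3 did not overlap each other within a group in those libraries. The order below them differed between the groups. In doxycycline libraries Tapbp came next at 69.7 ± 3.64, apart from Psmb8 at 49.9 ± 5.74, which overlapped Tap2 at 41.3 ± 4.57. In untreated libraries Tap2, at 87.3 ± 10.9, and Psmb8, at 76.9 ± 9.76, overlapped each other and lay above Tapbp, at 53.1 ± 3.14. Psmb10, Tap1 and Psmb9 followed in both groups, each overlapping its neighbour. The order in Id2-GFP libraries was B2m, H2-D1, H2-K1, Tap2, Psmb8, Tapbp, Psmb10, Tap1, Psmb9 and Nlrc5, and control-GFP libraries differed from it in that Psmb8 averaged above Tap2, with overlapping libraries.

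The doxycycline comparison asks what changes when MLL-AF9 is switched off, and the 10 members did not move together. H2-D1, B2m and Tapbp rose, Tap2, Psmb8 and Tap1 fell, and H2-K1, Psmb9, Psmb10 and Nlrc5 did not pass the test. This test had no term for the pair label. Of all genes tested, 31.3% rose and 33.8% fell, so 3 of 10 in each direction is close to the background. With the pair label as a replicate block 3 members rose and 4 fell, since Psmb9 then passed as well. In that fit 4498 of the 13406 genes rose and 4828 fell. The groups did not overlap for 5 of the 10 members, against 60.0% of all genes. The median change of the members was -0.02, and that of all genes was -0.03. Scaled by plain library totals instead, the median of all genes was -0.27, and changes are given relative to the authors' scaling. The counts were 2 rising and 4 falling members both with library totals, where 20.2% of all genes rose and 51.6% fell, and with quantile normalization, where 27.5% rose and 39.0% fell.

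**Figure D1:**
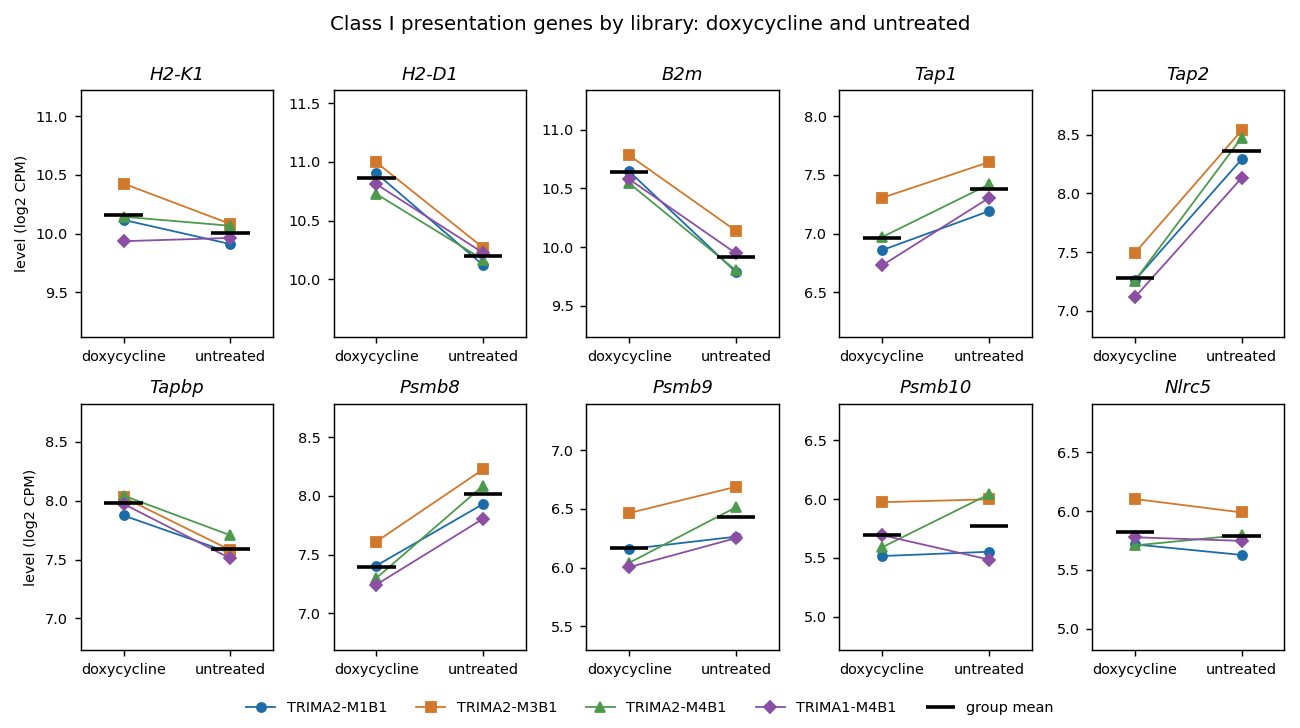
Level in log2 CPM (y axis) of each of the 10 genes in doxycycline and untreated libraries, with lines joining libraries of the same pair label, black bars at the group means, and the same span of log2 units in every panel. H2-D1 and B2m are higher in all 4 doxycycline libraries and Tap2 and Psmb8 lower, while the square of pair TRIMA2-M3B1 lies at or near the top of most panels.

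Among the class I chains, H2-D1, a classical heavy chain, was at 1914, 2040.3, 1693 and 1794 CPM in doxycycline libraries 1 to 4, against 1113, 1234, 1149.8 and 1196 CPM in untreated libraries 1 to 4. Every doxycycline library lay above every untreated library. H2-D1 rose by 0.66 ± 0.07 (limma, adjusted p = 4.0e-05). The light chain B2m, which every class I molecule shares, was at 1600.4, 1759, 1492 and 1528 CPM in doxycycline libraries, against 883, 1127, 892 and 987 CPM in untreated libraries. It rose by 0.72 ± 0.09 (limma, adjusted p = 9.7e-05), with no overlap between the groups. H2-K1, the other classical heavy chain, was at 1110.3, 1376, 1131 and 979 CPM in doxycycline libraries and 963, 1084, 1073 and 998 CPM in untreated libraries. Its groups overlapped, and its change of 0.15 ± 0.10 did not pass (limma, adjusted p = 0.211). Under quantile normalization the H2-D1 call was lost, at 0.13 (adjusted p = 0.221), the B2m change was 0.28 (adjusted p = 0.0479) and the H2-K1 change was -0.19 (adjusted p = 0.162).

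Both heavy chains come from the same library, so their ratio does not depend on the factor by which a library is scaled. Quantile normalization is no such factor and can change the ratio. CPM of H2-D1 over H2-K1 was 1.72, 1.48, 1.5 and 1.83 in doxycycline libraries, against 1.16, 1.14, 1.07 and 1.20 in untreated libraries. All 4 doxycycline ratios lay above all untreated ones. In the transduced cells the ratio was 1.18, 1.13 and 1.14 in Id2-GFP and 1.13, 1.13 and 1.09 in control-GFP libraries, where the groups overlapped. This ratio was picked after its values were seen and was not tested. The part of reads split between these paralogs in it was not tested.

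Of the peptide transport and loading genes, Tap2 had the largest change of the 10 members under the authors' scaling. It encodes the partner of Tap1 in the peptide transporter and was at 153, 180.2, 153 and 139 CPM in doxycycline libraries, against 313, 371, 356 and 281 CPM in untreated libraries. No doxycycline library reached the lowest untreated library. Tap2 fell by 1.08 ± 0.10 on the log2 scale (limma, adjusted p = 1.4e-05), and its pair differences were -1.03, -1.04, -1.22 and -1.02. Gm20496 and Gm15821, the noncoding genes on the other strand that share exonic bases with Tap2, fell by 0.91 and 1.15 on the log2 scale (limma, adjusted p = 0.0329 and 0.000654). Tap1 was at 116, 158, 125 and 106 CPM in doxycycline libraries and 146, 195, 171 and 158 CPM in untreated libraries. These ranges overlapped through doxycycline replicate 2, although Tap1 was lower in doxycycline in each of the 4 pairs, with differences of -0.33, -0.30, -0.45 and -0.57. Tap1 fell by 0.41 ± 0.13 on the log2 scale (limma, adjusted p = 0.0162). That call was lost without pair TRIMA2-M4B1 (adjusted p = 0.0736) or without pair TRIMA1-M4B1 (adjusted p = 0.0524).

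Tapbp encodes tapasin, which bridges the transporter and the empty class I molecule. It was at 235, 261, 264 and 251 CPM in doxycycline libraries, against 188, 191, 209 and 182 CPM in untreated libraries. The groups did not overlap, and Tapbp rose by 0.39 ± 0.06 (limma, adjusted p = 0.000212), against the direction of both transporter genes. With library totals its change was 0.15 (adjusted p = 0.0689). Zbtb22, which shares 149 exonic bases with Tapbp on the same strand, had a change of -0.01 (limma, adjusted p = 0.795).

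The 3 immunoproteasome subunits differed among themselves. Psmb8 was at 169.7, 196, 158 and 152 CPM in doxycycline libraries, against 244, 299, 272 and 224 CPM in untreated libraries. Its groups did not overlap, and Psmb8 fell by 0.62 ± 0.10 on the log2 scale (limma, adjusted p = 0.000531). Psmb9, the neighbour of Tap1, was at 71.4, 88.3, 65.8 and 64.2 CPM in doxycycline libraries and 76.8, 103, 91.4 and 76.2 CPM in untreated libraries. Its groups overlapped and its change was -0.26 ± 0.12 (limma, adjusted p = 0.0891), but it was lower in each pair, with differences of -0.11, -0.22, -0.47 and -0.25. With the pair label as a replicate block, Psmb9 passed the test (limma, adjusted p = 0.00506). It also passed without doxycycline replicate 2 (adjusted p = 0.0175), without pair TRIMA2-M3B1 (0.0224), with library totals (0.00800) and under quantile normalization (0.0376). Psmb10 was at 45.7, 62.8, 48.1 and 51.7 CPM in doxycycline libraries and 46.9, 63.9, 65.8 and 44.8 CPM in untreated libraries. Here the pairs disagreed in sign, with differences of -0.04, -0.02, -0.45 and 0.21, and the change was -0.08 ± 0.15 (limma, adjusted p = 0.666).

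**Figure D2:**
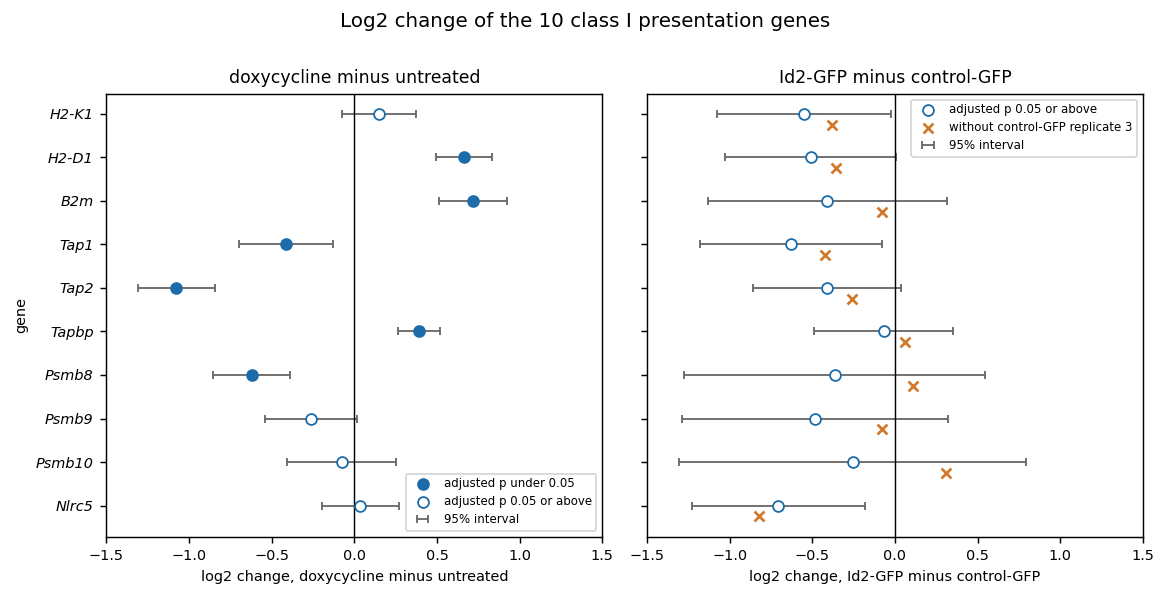
Log2 change (x axis) of each gene (y axis) with its 95% interval, in doxycycline minus untreated on the left and Id2-GFP minus control-GFP on the right. Filled circles passed the test and open circles did not, and crosses give the change without control-GFP replicate 3, which moves Tapbp, Psmb8 and Psmb10 to the other side of 0.

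The constitutive counterparts had changes between -0.22 and 0.17. Psmb5, whose place Psmb8 takes, was at 139, 124, 129 and 125 CPM in doxycycline libraries and 169, 129, 148 and 156 CPM in untreated libraries, a change of -0.22 ± 0.08 (limma, adjusted p = 0.0386). The call was lost without any 1 of doxycycline replicates 2, 3 or 4 or untreated replicates 1, 3 or 4 (adjusted p of 0.0680 to 0.0975), without pairs 1, 3 or 4 (0.0639 to 0.153) and with no variance trend (0.0621). Psmb6, the counterpart of Psmb9, rose by 0.17 ± 0.05 (limma, adjusted p = 0.0124), a call that was lost under quantile normalization, at 0.07 (adjusted p = 0.189), and with library totals, where its change was -0.07. Psmb7, the counterpart of Psmb10, changed by -0.15 ± 0.06 (limma, adjusted p = 0.0618, or 0.0390 with the replicate block), and it shares 405 exonic bases with Nek6, which rose by 2.25 (limma, adjusted p = 7.0e-07).

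Ratios within a library set each immunoproteasome subunit against its counterpart. The CPM ratio of Psmb8 to Psmb5 was 1.22, 1.58, 1.23 and 1.22 in doxycycline libraries, against 1.44, 2.33, 1.84 and 1.44 in untreated libraries. On the log2 scale the groups averaged 0.38 ± 0.18 and 0.79 ± 0.33 (SD, n = 4 each) and differed by -0.41 (exact two-sided permutation p = 0.0857, adjusted over 6 ratio tests 0.257). Only doxycycline replicate 2 reached into the untreated range. The ratio of Psmb9 to Psmb6 was 0.698, 0.904, 0.687 and 0.645 in doxycycline libraries, against 0.839, 1.28, 1.02 and 0.849 in untreated libraries, a log2 difference of -0.43 with the same exact permutation p. Psmb10 to Psmb7 gave 0.376, 0.554, 0.402 and 0.468 in doxycycline and 0.353, 0.556, 0.506 and 0.324 in untreated libraries, with a difference of 0.07 (exact permutation p = 0.771). The smallest p that 4 against 4 libraries allow is 0.0286, and none of the ratios passed after adjustment. These tests ignore the pairing and do not show that the ratios were alike. Within the pairs, the log2 ratio of Psmb8 to Psmb5 was lower in doxycycline in 4 of 4, with differences of -0.24, -0.56, -0.58 and -0.24. That of Psmb9 to Psmb6 was lower in 4 of 4 as well (-0.26, -0.50, -0.57 and -0.40), and that of Psmb10 to Psmb7 in 2 of 4.

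**Figure D3:**
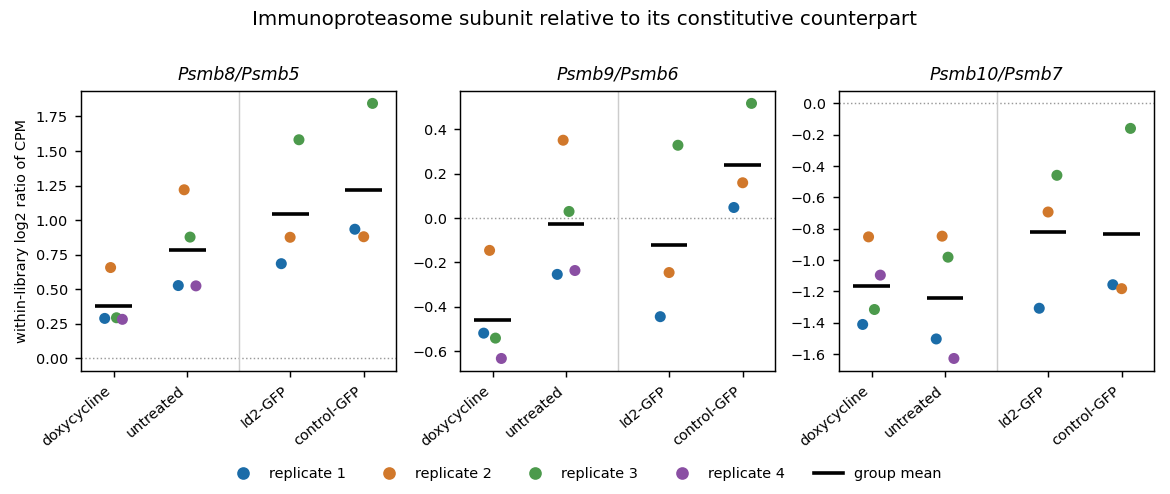
Within-library log2 ratio of CPM (y axis) of each immunoproteasome subunit to its constitutive counterpart, 1 point per library in the 4 groups (x axis), coloured by replicate number, with bars at the group means. In doxycycline and untreated libraries replicate 2 has the highest Psmb8 to Psmb5 log2 ratio, at 0.66 and 1.22, and in Id2-GFP and control-GFP libraries replicate 3 does, at 1.58 and 1.84.

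Nlrc5, the transactivator that acts on class I, B2m and Tap1 promoters, was at 52.6, 68.7, 52.3 and 54.8 CPM in doxycycline libraries and 49.4, 63.5, 55.6 and 53.7 CPM in untreated libraries. The groups overlapped throughout. Its change was 0.04 ± 0.10, with a 95% interval of -0.20 to 0.27 (limma, adjusted p = 0.771). With library totals the change was -0.20, and under quantile normalization it was -0.02.

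Part of the members' spread followed the pairs. Doxycycline replicate 2 lay above its group mean for 10 of 10 members and untreated replicate 2, of the same pair TRIMA2-M3B1, for 9 of 10. On average the members lay 0.22 and 0.17 above their group means in these libraries. Untreated replicate 1 lay below its group mean for all 10. Outside the 10 genes, those most like the mean of the members' centred log2 values over the 8 libraries were H2-T10, a non-classical heavy chain, with a Pearson correlation of 0.977, Pla2g4b (0.975), Disc1 (0.965), Vgll4 (0.955) and Xlr3a (0.951). The libraries share pair labels and treatment, and the correlations are a description only. None of these 5 genes passed the test of doxycycline against untreated. That follows in part from how they were picked, since rising and falling members offset each other in the mean. The members' own correlations with the mean ran from -0.03 for Tapbp to 0.90 for Psmb9. H2-D1 and B2m, which rose, were at -0.02 and 0.04, and Tap2, which fell, was at 0.43.

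Other genes of the pathway were read in lists. Of the 73 other pathway genes in the doxycycline table, 26 rose and 25 fell, where 31.3% and 33.8% of all genes did, so neither count stands far from the background. With library totals 18 rose and 40 fell, and under quantile normalization 22 rose and 35 fell, beside the larger share of all genes that fell there too. The lists and the members had been drawn up with earlier results of these data known, and no list was tested as a whole.

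Interferon signalling genes and class I inducers were the list with the most rising genes: 14 of 17 rose and 1 fell, against 31.3% and 33.8% of all genes, with a median of 0.44. With library totals 10 rose and 2 fell, against 20.2% and 51.6% of all genes. Ifngr2, a chain of the interferon-gamma receptor, was at 109 to 117 CPM in doxycycline and 44.1 to 50.1 CPM in untreated libraries and rose by 1.26 ± 0.05 (limma, adjusted p = 2.4e-07). Ifnar1, a chain of the type I interferon receptor, rose by 0.83 ± 0.04 (adjusted p = 6.5e-07). Relb, an NF-kappaB subunit, was at 15.4 to 20.8 CPM in doxycycline and 6.31 to 7.78 CPM in untreated libraries and rose by 1.38 ± 0.11 (adjusted p = 5.3e-06). The groups did not overlap for any of these 3. Of the 8 measured partners of Nlrc5 on class I promoters, 5 fell and none rose, against 33.8% and 31.3% of all genes, with a median of -0.17. The count that fell was 3 without doxycycline replicate 4, without untreated replicate 2, or without pair 1, 2 or 4. Of the partners, 1 rose without untreated replicate 2, without pair 2, with the replicate block and with a mean log2 above 3. Nfyc, a subunit of the Y box factor NF-Y, had a log2 change of -0.48 ± 0.05 (adjusted p = 2.3e-05), Creb1, which binds the CRE core, one of -0.32 ± 0.05 (adjusted p = 0.000185), and Rfx5, a subunit of RFX, one of -0.27 ± 0.06 (adjusted p = 0.00382). These fits are limma's, and each of the 6 calls held under every alternative scaling and with any library left out.

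**Figure D4:**
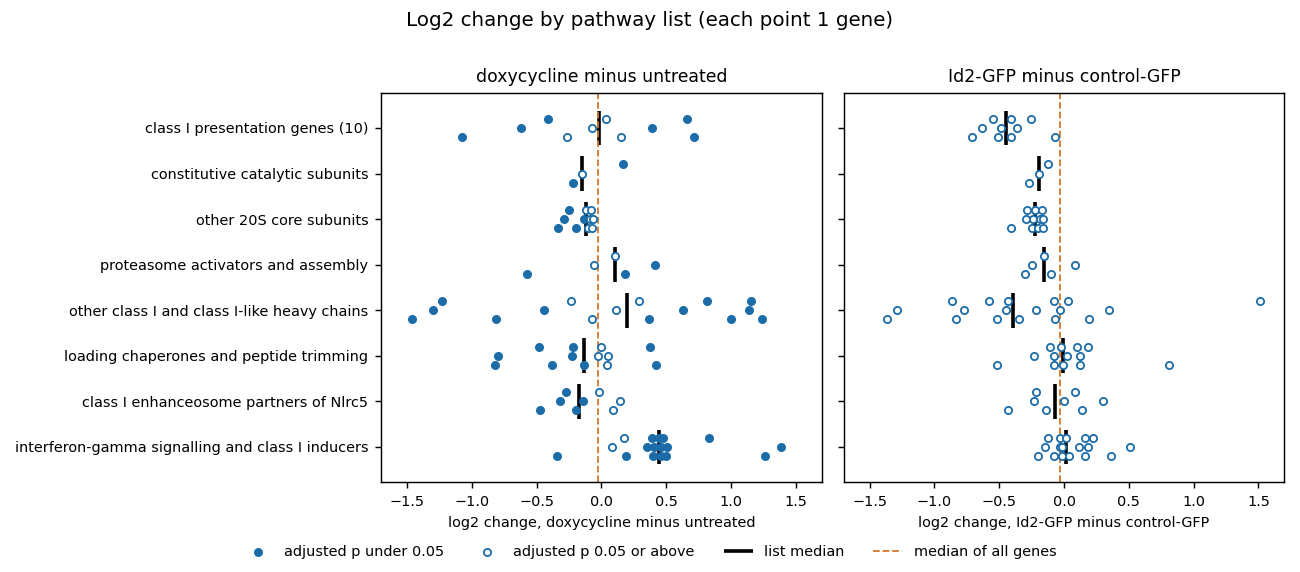
Log2 change (x axis) of every measured gene in the 10 class I presentation genes and 7 other lists of the pathway (y axis), in doxycycline minus untreated on the left and Id2-GFP minus control-GFP on the right. Filled points passed the test, black bars are list medians and the dashed line is the median of all genes, -0.03 in both comparisons; the interferon list sits at a median of 0.44 on the left and 0.01 on the right.

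The other heavy chains moved both ways. Of 16 measured, 7 rose and 5 fell, with a median of 0.20. With the replicate block 8 rose and 6 fell. With library totals the median was -0.04 (6 rose and 6 fell), and without doxycycline replicate 2 it was 0.05. The count that fell was 3 without doxycycline replicate 1 or 4, without untreated replicate 2, or without pair 3 or 4. H2-T24, a non-classical chain, was at 27.9 to 31.5 CPM in doxycycline and 11.9 to 15.2 CPM in untreated libraries and rose by 1.14 ± 0.08 (limma, adjusted p = 2.6e-06). Mr1, which presents vitamin B metabolites, was at 13.2 to 17.8 CPM in doxycycline and 6.48 to 8.69 CPM in untreated libraries and rose by 1.00 ± 0.12 (limma, adjusted p = 8.0e-05). Cd1d1, which presents lipids, was at 7.27 to 10.5 CPM in doxycycline and 15.8 to 26.2 CPM in untreated libraries and fell by 1.23 ± 0.17 on the log2 scale (limma, adjusted p = 0.000166). H2-Q4, H2-Q5, H2-Q6 and H2-Q7 made up the other 4 that fell, with changes of -0.44 to -1.46, and H2-K2, H2-T22, H2-T23, Hfe and Fcgrt the other 5 that rose, by 0.37 to 1.24. These names beyond the first 3 are given to complete the counts.

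Of 13 chaperones and trimming peptidases, 7 fell and 2 rose, against 33.8% and 31.3% of all genes, with a median of -0.13. With library totals 11 fell and 1 rose. Calr, the chaperone that holds class I in the loading complex, was at 1143, 1024, 1165 and 1145 CPM in doxycycline libraries, against 2065, 1777, 1977 and 2086 CPM in untreated libraries. It fell by 0.82 ± 0.08 on the log2 scale (limma, adjusted p = 1.1e-05), so that within the loading complex Calr and Tapbp moved apart. Thop1 and Blmh, cytosolic peptidases that can destroy or trim peptides, fell by 0.80 ± 0.07 and 0.48 ± 0.05 (limma, adjusted p = 1.2e-05 and 2.7e-05). In the proteasome itself, all 11 other core subunits had changes below 0, and 5 of them fell, led by Psma6 at -0.33 ± 0.05 (adjusted p = 0.000289), Psma1 at -0.25 ± 0.05 (0.00156) and Psma5 at -0.29 ± 0.06 (0.00203). The count that fell was 6 with the replicate block and 3 without pair 3. All 11 fell with library totals and under quantile normalization, where 51.6% and 39.0% of all genes did. Of 5 activator and assembly genes, Psme2, a subunit of the interferon-inducible activator PA28, rose by 0.41 ± 0.05 (adjusted p = 9.4e-05) and Psme4 by 0.18 ± 0.04 (0.00237), while Psme3 fell by 0.57 ± 0.06 (adjusted p = 1.5e-05). With library totals the change of Psme4 was -0.06.

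The Id2 comparison asks what a higher Id2 level does in leukaemia cells for which no doxycycline is labelled, and no member passed its test. All 10 changes were below 0, from -0.71 for Nlrc5 to -0.07 for Tapbp, with a median of -0.45 against -0.03 for all genes. The members' adjusted p was 0.998 each (limma), which does not show that their levels were alike, and 3 of them, Nlrc5, Tap1 and H2-K1, had an unadjusted p under 0.05, as did 2.45% of all genes. Of all genes, 0.0137% rose and 0% fell. The groups did not overlap for 5 members, all of them lower in Id2-GFP. Over all 14563 genes they did not overlap for 6.95%, of which 549 genes were lower in Id2-GFP and 463 higher. Without control-GFP replicate 3 the members' median was -0.17, and the changes of Tapbp, Psmb8 and Psmb10 were above 0. There 1 member had an unadjusted p under 0.05, as did 4.15% of all genes, and the groups did not overlap for 5 members, against 20.2% of all genes in either direction. With the replicate number as a block, 16 genes rose and 19 fell among all genes, and still no member passed.

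**Figure D5:**
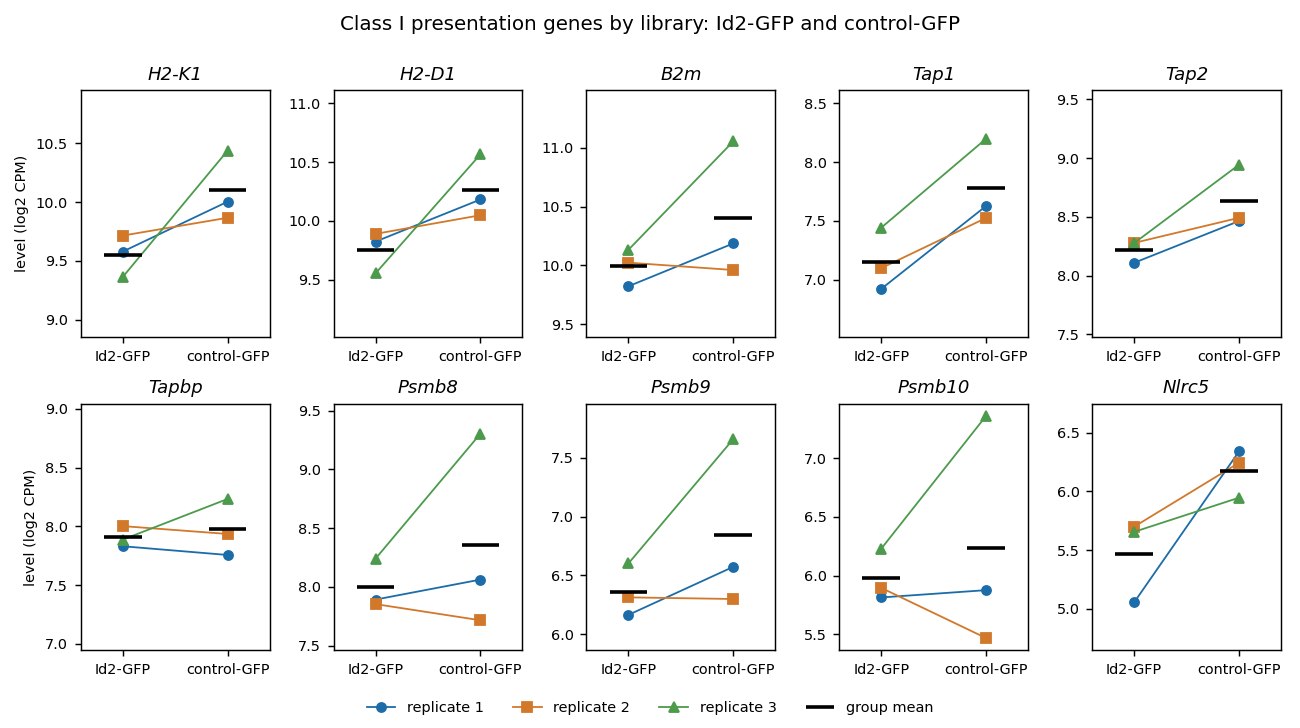
Level in log2 CPM (y axis) of each of the 10 genes in Id2-GFP and control-GFP libraries, with lines joining libraries of the same replicate number, black bars at the group means, and the same span of log2 units in every panel. The triangle of control-GFP replicate 3 is the highest point of every panel but that of Nlrc5, where it is the lowest of the control-GFP libraries.

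Nlrc5 had the largest change of the 10 members. It was at 33.2, 51.9 and 50.4 CPM in Id2-GFP libraries 1 to 3, against 81.0, 75.7 and 61.6 CPM in control-GFP libraries 1 to 3. No Id2-GFP library reached the lowest control-GFP library. The change was -0.71 ± 0.23, with a 95% interval of -1.23 to -0.18 (limma, unadjusted p = 0.0149, adjusted p = 0.998), and it was -0.82 without control-GFP replicate 3. By replicate number the differences were -1.28, -0.54 and -0.29. The 8 measured partners of Nlrc5 had a median of -0.07, and -0.04 without control-GFP replicate 3. Rfxap, a subunit of RFX, had the smallest p of them, with a change of -0.44 ± 0.26 (limma, adjusted p = 0.998), and -0.20 without that library.

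The heavy chains were lower in each Id2-GFP library than in any control-GFP library. H2-K1 was at 765, 841 and 659 CPM in Id2-GFP and 1027, 934 and 1388 CPM in control-GFP libraries, a change of -0.55 ± 0.23 (limma, unadjusted p = 0.0421). H2-D1 was at 906, 948 and 751 CPM in Id2-GFP and 1161, 1058 and 1516 CPM in control-GFP libraries, a change of -0.51 ± 0.22. Without control-GFP replicate 3 these changes were -0.38 and -0.36. B2m, in contrast, overlapped between the groups, at 905, 1041 and 1122 CPM in Id2-GFP and 1166, 996 and 2129 CPM in control-GFP libraries. Its change was -0.41 ± 0.31, and -0.08 without control-GFP replicate 3.

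Both transporter genes were also lower in every Id2-GFP library. Tap1 was at 121, 137 and 174 CPM in Id2-GFP and 198, 184 and 294 CPM in control-GFP libraries, a change of -0.63 ± 0.24 (limma, unadjusted p = 0.0297, adjusted p = 0.998). Tap2 was at 276, 311 and 310.2 CPM in Id2-GFP and 353, 360.2 and 492 CPM in control-GFP libraries, a change of -0.41 ± 0.19. Without control-GFP replicate 3 they changed by -0.42 and -0.26. Tapbp overlapped, at 228, 257 and 237 CPM in Id2-GFP and 216, 245 and 301 CPM in control-GFP libraries, with a change of -0.07 ± 0.18.

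For the immunoproteasome the 3 pairs disagreed. Psmb8 was at 238, 231 and 303 CPM in Id2-GFP and 267, 210.3 and 632 CPM in control-GFP libraries. Psmb9 was at 71.7, 79.5 and 97.2 CPM in Id2-GFP and 95.2, 78.8 and 202 CPM in control-GFP libraries. Psmb10 was at 56.3, 59.5 and 75.0 CPM in Id2-GFP and 58.7, 44.3 and 164 CPM in control-GFP libraries. In each, control-GFP replicate 2 lay within or below the Id2-GFP range and control-GFP replicate 3 above it. The changes were -0.37 ± 0.39, -0.48 ± 0.35 and -0.26 ± 0.45, and without control-GFP replicate 3 they were 0.11, -0.08 and 0.31. The log2 ratios to Psmb5, Psmb6 and Psmb7 differed by -0.17, -0.36 and 0.01 between the groups (exact two-sided permutation p = 0.5, 0.3 and 1.0, where the smallest p that 3 against 3 libraries allow is 0.1). By replicate number these ratios were lower in Id2-GFP in 3 of 3, 3 of 3 and 2 of 3. Over the 6 libraries, control-GFP replicate 3 among them, the genes most like the members' mean were Tubb2b (Pearson correlation 0.998), Noxred1 (0.997), Eif2a (0.994), Nol12 (0.993) and Rbm43 (0.987), as a description only.

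In the other lists no gene passed in the Id2 comparison. Of the 75 measured genes, 8 had an unadjusted p under 0.05, as did 2.45% of all genes. Of these 8, 7 were among the 18 other heavy chains measured. In that list 9 genes were lower in every Id2-GFP library and none was higher in every one. Over all genes, the groups did not overlap for 6.95%, in either direction. Reads can be split among heavy chains of close sequence, so these may not be separate observations. Changes were below 0 for 14 of the 18 and above 0 for 4, with a median of -0.39. The change furthest from 0 was that of Fcgrt, at 1.51, with overlapping groups. The 18 had 12 changes below 0 and 6 above, with a median of -0.29, without control-GFP replicate 3. Without control-GFP replicate 3, 8 genes of the other lists had an unadjusted p under 0.05, as did 4.15% of all genes. There 9 other heavy chains were lower in every Id2-GFP library, and 20.2% of all genes did not overlap, in either direction. H2-Q7, a chain known as Qa-2, was at 57.8, 66.5 and 73.8 CPM in Id2-GFP and 133, 132 and 279 CPM in control-GFP libraries. Its change was -1.37 ± 0.30 (limma, unadjusted p = 0.00234, adjusted p = 0.998), -1.01 without control-GFP replicate 3, and it passed with the replicate block (adjusted p = 0.0458). The remaining gene of the 8 was Ifngr2. It was at 68.6, 80.9 and 81.1 CPM in Id2-GFP and 50.5, 59.1 and 52.0 CPM in control-GFP libraries. Its change was 0.51 ± 0.16, and 0.49 without control-GFP replicate 3. Calr was at 1503, 1137 and 1035 CPM in Id2-GFP and 1781, 1739.7 and 1674 CPM in control-GFP libraries, with no overlap and a change of -0.52 ± 0.22, and -0.54 without control-GFP replicate 3. The lowest p in the core subunits, among Psmb5, Psmb6 and Psmb7 and in the activator and assembly list belonged to Psma6 (-0.41 ± 0.29), Psmb7 (-0.27 ± 0.26) and Pomp (-0.30 ± 0.35). Without control-GFP replicate 3 these changes were -0.10, -0.04 and 0.10. The median of the 11 other core subunits was -0.22, and 0.03 without control-GFP replicate 3. That of the 5 activator and assembly genes was -0.15, and 0.10 without it, with 4 of 5 higher in Id2-GFP. That of the interferon list was 0.01, and 0.17 without it.

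Side by side, the 2 comparisons differed in how the members lay. In doxycycline, H2-D1 and B2m had changes of 0.66 and 0.72 and Nlrc5 of 0.04, and in Id2-GFP these were -0.51, -0.41 and -0.71. Under quantile normalization the doxycycline changes of H2-D1 and B2m were 0.13 and 0.28, and without control-GFP replicate 3 the Id2-GFP changes of H2-D1, B2m and Nlrc5 were -0.36, -0.08 and -0.82. Tap1 and Tap2 were below 0 in both, at -0.41 and -1.08 in doxycycline and -0.63 and -0.41 in Id2-GFP, or -0.42 and -0.26 without control-GFP replicate 3. Id2 itself was at 80.4 to 92.6 CPM in doxycycline and 21.4 to 33.5 CPM in untreated libraries, a rise of 1.66 ± 0.13 (limma, adjusted p = 3.4e-06), and in Id2-GFP libraries it was at 952 to 1631 CPM. The tables were normalized apart, and the difference between the comparisons was not tested.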

How the data were processed

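The 14 RNA-seq libraries were grouped by their labels. The authors deposited a table of log2 CPM for each comparison, made per the submitters' processing notes with CASAVA 1.8.2, TopHat2, HTSeq and limma on mm10; the role of each tool, the strand setting and the filter are not given in the sources used here. All values came out as whole reads, within 0.01 read, after removing an offset of 0.5 read, and 100% of genes had over 1 CPM in at least 2 libraries. Of 13419 entries in the doxycycline table, 13 repeated the ID of an earlier entry and were left out, and 13406 genes were tested.

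The deposited log2 values were fitted with limma 3.58.1 in R 4.3.3 (variance trend, two-sided, Benjamini-Hochberg over all genes of a table, threshold 0.05), without the pair as a term. Within-library ratios had exact permutation tests. Alternatives were a replicate block, library totals, quantile normalization, a mean log2 above 3, no variance trend, robust variance, an offset of 2 reads, and leaving out each library or pair. Same-numbered libraries deviated together over all genes (correlations of 0.454 to 0.552 and of 0.472 to 0.581), so the numbers pair the samples. The fits were tested on simulated data.

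The text names every member, Psmb5, Psmb6 and Psmb7, up to 3 genes with the smallest p among those called in each other list (1 where none was called), and the 5 genes most like the members' mean. Id2, Mllt3 and overlapping neighbours are named as checks. Members and lists were chosen with earlier results of these data known. Transcripts were aligned with blastn 2.17.0.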

Additional observations from a re-analysis of the deposited data

Results flagged for a closer look

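Calr, the class I loading chaperone, was at 1024 CPM in doxycycline replicate 2, while the other 3 doxycycline libraries lay between 1143 and 1165 CPM. The gap to the nearest of them was 0.853 of the group's range, above Dixon's 95% critical value for 4 libraries. In all, 62 groups of 4 libraries were examined, and chance alone gives such a gap in about 1 of 20 groups.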

How the results depend on the processing

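Between 5 and 7 members were called in doxycycline under the 19 alternatives, and 0 in Id2-GFP under 16. In doxycycline, the change of H2-K1 turned to -0.091 with library totals and -0.19 under quantile normalization, that of Nlrc5 to -0.20 and -0.019, and that of Psmb6 to -0.070 with library totals. With libraries or pairs left out, Nlrc5 ranged over -0.056 to 0.10 and Psmb10 over -0.17 to 0.049. In Id2-GFP, those left-out ranges crossed 0 for Tapbp (-0.18 to 0.071), Psmb8 (-0.69 to 0.11), Psmb10 (-0.64 to 0.31), Psmb5 (-0.36 to 0.11), Psmb6 (-0.39 to 0.25) and Psmb7 (-0.48 to 0.013), in each case above 0 without control-GFP replicate 3 or without pair 3. With the replicate block 35 genes were called in Id2-GFP, among them 1 other pathway gene, against 2 and 0 without it; leaving out a library or pair gave 0 to 3. The block gave Psmb9 (adjusted p = 0.00506) and Psmb7 (0.0390) a call in doxycycline and changed no other call of a member or constitutive subunit. With libraries or pairs left out, the log2 ratio of Psmb10 to Psmb7 differed by -0.082 to 0.21 in doxycycline and by -0.22 to 0.35 in Id2-GFP, and that of Psmb8 to Psmb5 by -0.44 to 0.14 in Id2-GFP. The cause of these shifts was not tested. Strand, the split of reads among class I paralogs, and 3 libraries a group limit the values.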
